A study of Mus musculus with 10 samples.

Results

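The interleukin 1 family and inflammasome were followed through 10 genes, Il1a, Il1b, Il1rn, Il18, Il33, Il1rap, Il18bp, Casp1, Nlrp3 and Pycard, which are 10 of 36315 genes on the array. They were chosen by name: every probe outside the array's control set whose gene name is one of the 10 or an older synonym was taken, which gave 13 probes. RNA had been labelled with the dye Cy3 and read on single-colour arrays from RAW264.7 cells, a macrophage-like line derived from a mouse tumour induced by Abelson leukaemia virus. The 5 groups of 2 arrays were Dex (dexamethasone), FF (fluticasone furoate), VSG22, VSGC12 and EtoH. Both named drugs are synthetic glucocorticoids used as medicines, while the other 2 compounds carry code names only. Each of the 4 was given at 100 nM, and lipopolysaccharide (LPS), a bacterial cell-wall component, followed 1 hour later at 1 µg/ml. The labels place the RNA harvest at 16 hours. EtoH is read as the solvent control, although its labels leave unstated whether LPS was given. They also do not say whether replicates came from separate cultures, so p-values measure only the spread between these samples, which may be technical.

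Il1a and Il1b encode the agonists IL-1α and IL-1β, Il1rn encodes the antagonist that occupies their receptor without signalling, and Il18 and Il33 encode further family cytokines. IL-1β and IL-18 are made as inactive precursors and are cut by caspase-1, which is activated on an inflammasome: a sensor such as NLRP3 binds the adaptor ASC, the product of Pycard, and ASC recruits caspase-1. In macrophages, LPS raises transcription of Il1b, and glucocorticoids are classical repressors of such inflammatory genes. RAW264.7 cells are known for lacking ASC protein, so mRNA levels in this line are not levels of processed cytokine.

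Values are log2 processed signals relative to the 75th percentile of all non-control probes on that array, so that 0 is the signal of a probe at that percentile; levels of different probes are not comparable. The array percentile itself lay between 315.3 and 428.5 units of signal. The probes that represent the 10 genes were well above background on all 10 arrays, and 0 spots were saturated. Of 12 macrophage markers, 11 were also well above background on all arrays, with summed signals, in multiples of the array percentile, of 644 to 714 on glucocorticoid arrays and 544 to 545 on EtoH arrays. They moved both ways: Itgam (1.29), Csf1r (1.18) and Lyz2 (0.94) rose with the mean of the 4, and Ptprc (-0.68) and Adgre1 (-0.24) fell. The remaining marker, Mrc1 (-1.54), was well above background on 0 glucocorticoid arrays and on 2 EtoH arrays. It entered the test only through EtoH, where it was high, and its call supports nothing. No marker of B cells (4) or epithelium (5) was well above background on any array. Among T cell markers Cd3d and Cd8a were likewise at background, while 3 of 6 were not. The summed T cell markers ran from 39.3 to 114 on glucocorticoid arrays and from 28.3 to 30 on EtoH arrays; Cd4 was higher with the mean of the 4 (1.23, adjusted p = 0.0238) and Il7r lower (-1.51). Summed neutrophil and mast cell markers (9 on the array, with Ltf, S100a9 and Mcpt4 at background) ran from 71.2 to 165 on glucocorticoid arrays and from 56.1 to 71.9 on EtoH arrays. The largest term was Elane, with group means of 5.40 to 6.88 against 5.11 in EtoH (1.12, adjusted p = 0.0445). Of the others measured, Camp fell (-0.52), S100a8 was not called (0.13), and Tpsb2 rose (0.57) but was well above background on only 1 EtoH array. Fibroblast markers (6, with Col1a1, Col1a2 and Pdgfra at background) summed to 0.462 to 0.734 on glucocorticoid arrays and 0.439 to 0.537 on EtoH arrays. Of these, Lum (0.57) and Dcn (-0.01) were measured and not called. Endothelial markers (3, with Pecam1 and Cdh5 at background) summed to 4.74 to 6.92 on glucocorticoid arrays and 8.03 to 8.76 on EtoH arrays. The other endothelial marker, Kdr, was well above background on all arrays and fell (-0.55, limma adjusted p = 0.00899). The part of these markers in the results was not tested. Replicates differed most in Dex, where the difference between replicates had an SD of 0.63 across genes, against 0.33 to 0.41 in the other groups. The glucocorticoid-induced gene Fkbp5 (probe on mm9 at chr17:28536060-28536119) was 4.32-fold higher with the mean of the 4 glucocorticoids than in EtoH (log2 difference 2.11 ± 0.10, SE, limma adjusted p = 2.3e-05), whereas Tsc22d3, another classical target, differed by 0.13 (adjusted p = 0.168).

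With the mean of the 4 glucocorticoids, 7 of the 10 genes were lower than in EtoH and 2 were higher. Il33, Il1b, Il1a, Il1rn, Il18bp, Il18 and Casp1 fell, Nlrp3 and Il1rap rose, and Pycard was not called. Of 18028 genes tested, 44.2% were called in this comparison, 21.6% higher (3898 genes) and 22.5% lower (4063 genes) in the glucocorticoid groups. Shares of all genes include those without a current symbol, which 13515 of the 18051 genes measured have. The median log2 difference was -0.83 over the 10 genes and -0.00402 over all genes. With the array median subtracted in place of the percentile, the median of all genes moved to 0.118 and 70.3% of calls were higher; of the 10 genes, 2 were then called higher and 5 lower. In 7 genes all 8 glucocorticoid arrays lay below both EtoH arrays, which held for 24.7% of the 17891 genes with a value on every array, and in 2 genes all 8 lay above both, which held for 22.9%.

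**Figure D1:**
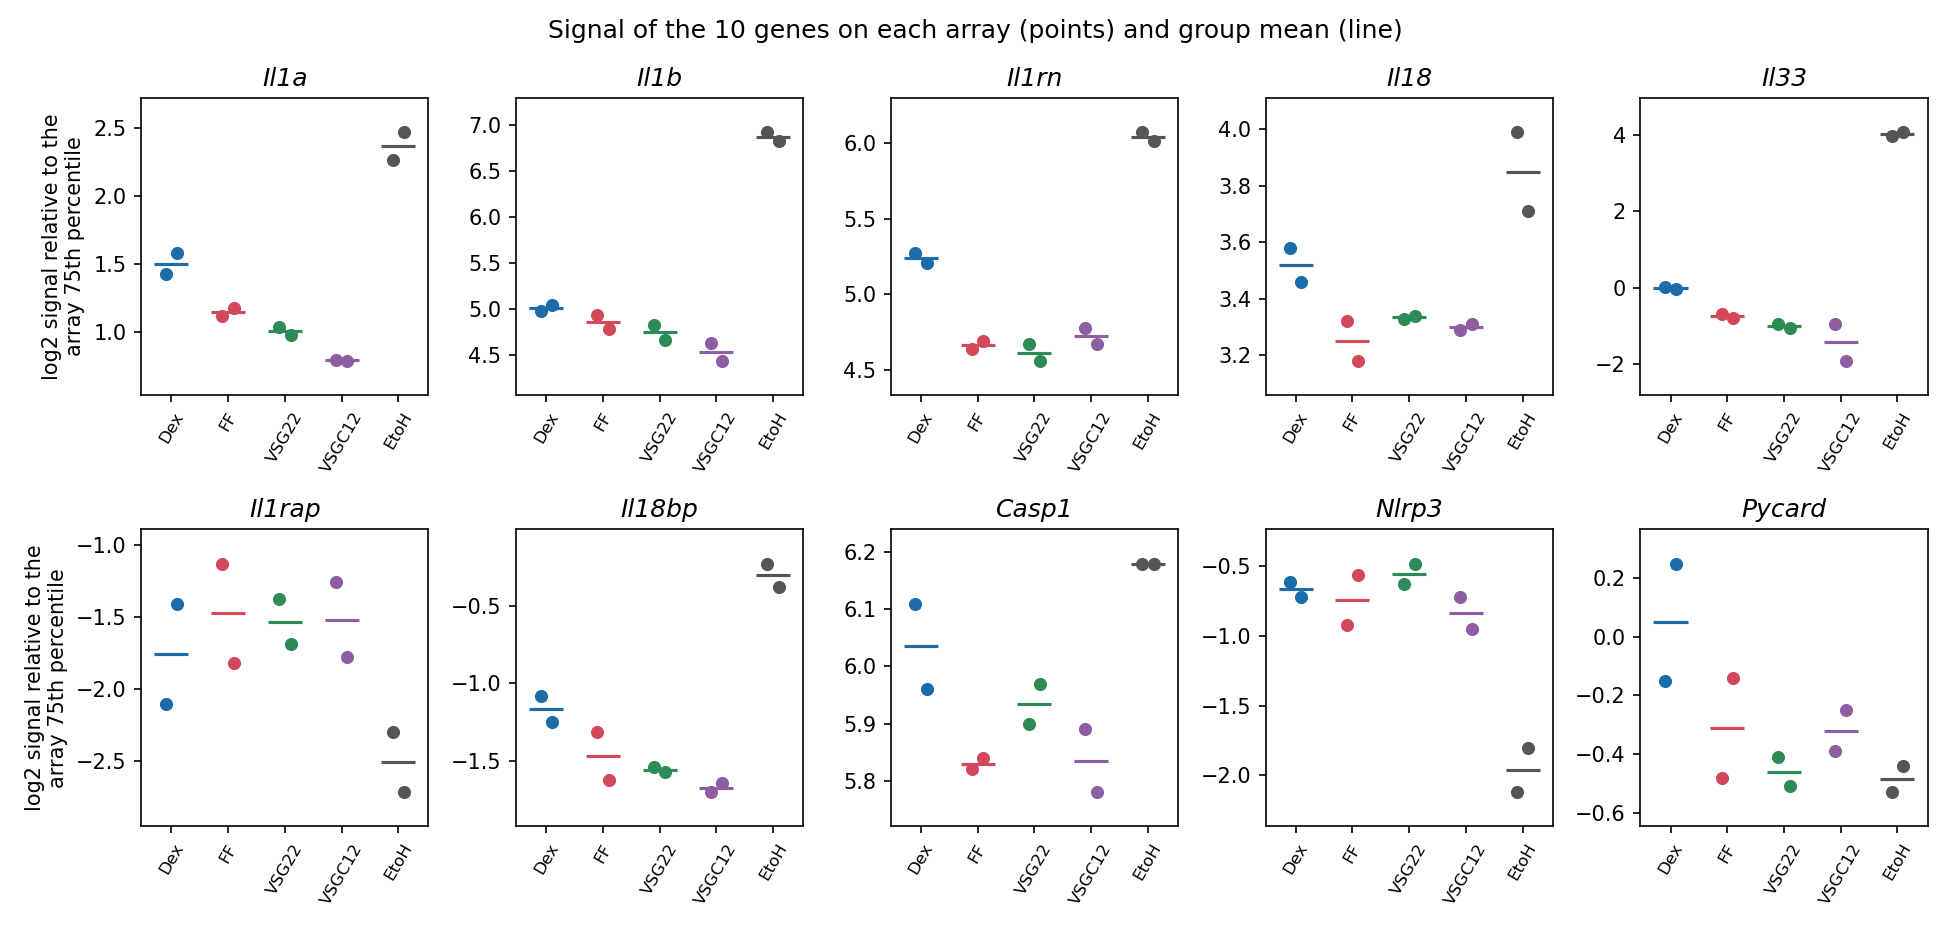
Log2 signal relative to the array's 75th percentile (vertical axis) of each of the 10 genes on each array, by group; points are arrays, with replicate 1 on the left, and lines are group means of 2 arrays. The 8 glucocorticoid arrays lie below both EtoH arrays for 7 genes and above both for Nlrp3 and Il1rap, and the groups overlap for Pycard.

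Of the agonist ligands, Il33 had the largest difference of the 10 genes. Il33 encodes an alarmin that signals through the receptor ST2, and its probe lies on mm9 at chr19:30035101-30035160. Its log2 signal was 0.02 and -0.05 in Dex, -0.70 and -0.79 in FF, -0.95 and -1.07 in VSG22, and -0.96 and -1.93 in VSGC12, against 3.98 and 4.08 in EtoH. The glucocorticoid arrays were all far below both EtoH arrays, and VSGC12 was the group whose replicates stood farthest apart. Il33 was 28.5-fold lower with the mean of the 4 (log2 difference -4.83 ± 0.22, SE, adjusted p = 1.7e-05). It was 16.5-fold lower in Dex, 27.3-fold in FF, 32.9-fold in VSG22 and 44.3-fold in VSGC12, each against the same 2 EtoH arrays. In these bulk samples, fewer cells that express a gene and less RNA per cell cannot be told apart.

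Il1b, the gene of IL-1β, is read by 10 spots of 1 probe on each array (mm9 chr2:129190347-129190406, minus strand). Its log2 signal was 4.97 and 5.04 in Dex, 4.93 and 4.78 in FF, 4.82 and 4.66 in VSG22, and 4.62 and 4.43 in VSGC12, against 6.92 and 6.82 in EtoH. No glucocorticoid array came near the EtoH arrays. The SD over spots within an array was 0.0273 to 0.0707, which measures the scatter of spots and not that of samples. On EtoH replicate 1, 1 spot was left out as marked by the software. Il1b was 4.26-fold lower with the mean of the 4 (log2 difference -2.09 ± 0.08, adjusted p = 1.1e-05), and 3.64-fold lower in Dex, 4.05-fold in FF, 4.4-fold in VSG22 and 5.08-fold in VSGC12.

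Il1a, the gene of the membrane-associated agonist IL-1α, is a neighbour of Il1b on chromosome 2 (probe on mm9 at chr2:129125994-129126053, minus strand). Its log2 signal was 1.43 and 1.58 in Dex, 1.12 and 1.18 in FF, 1.04 and 0.98 in VSG22, and 0.80 and 0.79 in VSGC12, against 2.27 and 2.47 in EtoH. The 4 glucocorticoid groups did not overlap each other or EtoH. How many of all genes separate in this way was not counted. It was 2.39-fold lower with the mean of the 4 (-1.25 ± 0.08, adjusted p = 4.8e-05).

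The promoters of these 3 ligand genes are shown because the genes fell together. Sequences of all 10 genes (14 promoters, 250 bases before to 50 after a transcription start, RefSeq, build GRCm38.p6) were searched on both strands for 5 motifs, and capitals mark the TATA motif TATAAA, which was added to the search after the sequences were seen. Positions are counted from the start. Il33 has 2 starts, and which of their transcripts its probe reads was not looked up.
Il1a, chr2:129309923-129310222, minus strand: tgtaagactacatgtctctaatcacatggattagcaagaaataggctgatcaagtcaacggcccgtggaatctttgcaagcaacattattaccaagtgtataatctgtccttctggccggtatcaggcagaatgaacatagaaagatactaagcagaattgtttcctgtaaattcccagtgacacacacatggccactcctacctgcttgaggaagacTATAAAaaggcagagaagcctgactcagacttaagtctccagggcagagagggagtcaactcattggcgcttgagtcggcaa
Il1b, chr2:129371090-129371389, minus strand: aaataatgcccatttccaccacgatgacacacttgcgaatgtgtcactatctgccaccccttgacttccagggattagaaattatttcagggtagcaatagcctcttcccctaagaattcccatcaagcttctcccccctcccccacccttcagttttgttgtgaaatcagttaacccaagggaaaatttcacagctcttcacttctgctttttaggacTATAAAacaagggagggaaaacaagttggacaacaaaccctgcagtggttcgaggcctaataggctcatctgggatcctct
Il33, first start, chr19:29924863-29925162, plus strand: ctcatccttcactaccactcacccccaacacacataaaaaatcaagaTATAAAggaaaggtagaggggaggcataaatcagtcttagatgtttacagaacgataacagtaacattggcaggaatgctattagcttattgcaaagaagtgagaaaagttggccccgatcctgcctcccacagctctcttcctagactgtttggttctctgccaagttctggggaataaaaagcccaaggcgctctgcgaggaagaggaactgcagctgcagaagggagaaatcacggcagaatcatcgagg
Il33, second start, chr19:29945540-29945839, plus strand: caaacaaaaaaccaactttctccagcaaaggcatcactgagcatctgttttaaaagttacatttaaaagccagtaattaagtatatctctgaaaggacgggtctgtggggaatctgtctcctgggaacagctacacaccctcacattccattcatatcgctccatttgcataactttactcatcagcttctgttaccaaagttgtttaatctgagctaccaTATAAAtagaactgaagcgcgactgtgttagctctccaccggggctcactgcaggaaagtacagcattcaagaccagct
TATAAA lies at -32 to -27 in Il1a, at -31 to -26 in Il1b and at -29 to -24 at the second Il33 start, and at -203 to -198 at the first. It was present in 6 of the 14 promoters, from 5 of the 10 genes (Il1rn and Il18 also), and in 13.6% of 32851 promoters of the same length. In Il1rn and Il18 it lies on the opposite strand, at 14 to 19 and at -175 to -170. Since the motif was chosen from these sequences, setting these shares side by side tests nothing. The full glucocorticoid element, AGAACA followed after 3 bases by its reverse complement, was in 0 of the 14 and in 0.00913% of all promoters. Its half-site AGAACA was in 3 (Il18bp, Casp1 and Il18) against 19% of all, and the interferon-response motif, GAAA repeated after 2 bases, in 1 (Il1rap) against 3.44%. These matches describe the windows and say nothing of binding.

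Il18, the gene of the interferon-gamma-inducing cytokine IL-18 (probe on mm9 at chr9:50389761-50389820), moved little. Its log2 signal was 3.58 and 3.46 in Dex, 3.32 and 3.18 in FF, 3.33 and 3.34 in VSG22, and 3.29 and 3.31 in VSGC12, against 3.99 and 3.71 in EtoH. All 8 glucocorticoid arrays were below both EtoH arrays, by a margin smaller than the gap between the EtoH arrays. Il18 was 1.41-fold lower with the mean of the 4 (-0.50 ± 0.09, adjusted p = 0.0046); with the array median subtracted it was not called (-0.38, adjusted p = 0.19), and with normexp background, which fits the scanned brightness and local background, it was -0.21 (adjusted p = 0.046). Within slides the difference was -0.61 and -0.38.

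The genes of both antagonists fell as well. Il1rn has 3 promoters among the 14, and which of their transcripts its probe reads was not looked up. Il1rn (probe on mm9 at chr2:24205094-24205153) had log2 signals of 5.27 and 5.21 in Dex, 4.64 and 4.69 in FF, 4.67 and 4.56 in VSG22, and 4.78 and 4.67 in VSGC12, against 6.07 and 6.01 in EtoH. The Dex arrays stood between EtoH and the other 3 glucocorticoids. Il1rn was 2.34-fold lower with the mean of the 4 (-1.23 ± 0.06, adjusted p = 2.6e-05), and 1.74-fold in Dex, 2.59-fold in FF, 2.69-fold in VSG22 and 2.49-fold in VSGC12. Il18bp, which encodes a soluble protein that binds and neutralizes IL-18 (probe on mm9 at chr7:109164100-109164159, minus strand), had log2 signals of -1.08 and -1.25 in Dex, -1.31 and -1.62 in FF, -1.54 and -1.57 in VSG22, and -1.70 and -1.64 in VSGC12, against -0.23 and -0.38 in EtoH. All 8 glucocorticoid arrays were below both EtoH arrays. It was 2.24-fold lower with the mean of the 4 (-1.16 ± 0.10, adjusted p = 2e-04).

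A ligand and its antagonist did not change by the same amount. The within-array difference of log2 signals, Il1b minus Il1rn, ran from -0.30 to 0.29 on the 8 glucocorticoid arrays (median -0.04), against 0.81 and 0.86 on the 2 EtoH arrays, a drop of 0.86. Il18 minus Il18bp ran from 4.63 to 4.99 (median 4.83) against 4.08 and 4.22, a rise of 0.66. On these arrays Il1b fell more than Il1rn, and Il18 fell less than Il18bp. Each gave p = 0.044 in an exact two-sided permutation test over arrays, with the 4 glucocorticoids pooled. That is the smallest p these group sizes allow, and it was 0.044 after Benjamini-Hochberg adjustment over the 2 relations computed. Any full separation of 8 arrays from 2 gives this p. The relations were chosen after the values were seen, so the test adds no support. Since probes differ, the sizes of these differences compare changes and not amounts of RNA.

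Of the receptor chains, Il1rap encodes the accessory chain shared by the IL-1, IL-33 and IL-36 receptors. The probe that represents it (mm9 chr16:26701498-26701557) had log2 signals of -2.11 and -1.41 in Dex, -1.13 and -1.82 in FF, -1.38 and -1.69 in VSG22, and -1.26 and -1.78 in VSGC12, against -2.30 and -2.72 in EtoH. The lowest Dex array was close to the upper EtoH array. Il1rap was 1.92-fold higher with the mean of the 4 (0.94 ± 0.27, adjusted p = 0.028), and 0.47 with normexp background (adjusted p = 0.048). No single glucocorticoid passed (adjusted p from 0.051 in FF to 0.13 in Dex; unadjusted p under 0.05 in FF, VSG22 and VSGC12), though FF and VSGC12 did without both Dex arrays (0.036 and 0.043) and VSG22 with only the groups compared (0.036). The call was lost without VSG22 replicate 1 (adjusted p = 0.054), without EtoH replicate 1 (0.069), without EtoH replicate 2 (0.2), and when dim probes were left unfiltered (0.081). The other 2 Il1rap probes (mm9 chr16:26716515-26716574 and chr16:26725291-26725350) were well above background on 0 arrays.

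The inflammasome genes moved in different directions. Nlrp3 encodes the sensor, and its 2 probes are printed because each reads a separate stretch of the gene and both rose.
Nlrp3, probe with the higher signal, mm9 chr11:59379981-59380040, plus strand: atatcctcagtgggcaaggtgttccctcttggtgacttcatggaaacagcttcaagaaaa
Nlrp3, second probe, mm9 chr11:59378554-59378613, plus strand: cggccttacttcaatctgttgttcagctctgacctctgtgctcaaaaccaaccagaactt
The first gave log2 signals of -0.61 and -0.72 in Dex, -0.92 and -0.56 in FF, -0.63 and -0.48 in VSG22, and -0.72 and -0.95 in VSGC12, against -2.12 and -1.80 in EtoH. All 8 glucocorticoid arrays were above both EtoH arrays. Among the glucocorticoids VSG22 and VSGC12 did not overlap, and each of the other pairs did or nearly did. Nlrp3 was 2.4-fold higher with the mean of the 4 (1.26 ± 0.13, adjusted p = 0.00048), 2.45-fold in Dex, 2.33-fold in FF, 2.65-fold in VSG22 and 2.18-fold in VSGC12. The second probe gave log2 signals of -1.74 and -1.68 in Dex, -1.87 and -1.81 in FF, -1.46 and -1.46 in VSG22, and -1.39 and -1.96 in VSGC12, against -3.32 and -2.67 in EtoH, and was 2.5-fold higher with the mean of the 4 (1.32 ± 0.19, adjusted p = 0.002). With normexp background the first probe's difference was 0.81, still called. The first of the 2 promoters of Nlrp3 is shown because it alone among the 14 matched the NF-kB consensus, at -186 to -177 (capitals), as did 8.46% of all promoters.
Nlrp3, chr11:59541319-59541618, plus strand, GRCm38.p6: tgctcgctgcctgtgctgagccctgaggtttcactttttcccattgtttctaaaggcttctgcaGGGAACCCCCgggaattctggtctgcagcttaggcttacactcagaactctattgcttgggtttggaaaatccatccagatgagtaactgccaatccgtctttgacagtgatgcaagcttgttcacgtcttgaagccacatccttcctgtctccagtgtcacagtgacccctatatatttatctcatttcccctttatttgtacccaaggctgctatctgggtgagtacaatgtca

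Casp1, the gene of the protease that cuts the IL-1β and IL-18 precursors, and Pycard, the gene of the adaptor ASC, moved by small amounts. Casp1 (probe on mm9 at chr9:5307206-5307265) had log2 signals of 6.11 and 5.96 in Dex, 5.82 and 5.84 in FF, 5.90 and 5.97 in VSG22, and 5.89 and 5.78 in VSGC12, against 6.18 and 6.18 in EtoH. All 8 were below both EtoH arrays, with Dex replicate 1 close to them. It was 1.21-fold lower with the mean of the 4 (-0.27 ± 0.07, adjusted p = 0.014). That call was lost with the array median subtracted (-0.15, adjusted p = 0.63), with no filter on dim probes (adjusted p = 0.1), without EtoH replicate 1 (0.084) and without EtoH replicate 2 (0.09). Pycard is read by a probe at mm9 chr7:135136241-135136300, minus strand, shown because a transcript of this gene was detected in a line known for lacking the protein.
Pycard, probe: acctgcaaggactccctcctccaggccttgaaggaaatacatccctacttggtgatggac
Pycard had log2 signals of -0.15 and 0.25 in Dex, -0.48 and -0.14 in FF, -0.41 and -0.51 in VSG22, and -0.39 and -0.25 in VSGC12, against -0.53 and -0.44 in EtoH. FF and VSG22 overlapped EtoH, whereas the Dex and VSGC12 arrays lay above both EtoH arrays. The mean of the 4 differed by 0.23 ± 0.13 (adjusted p = 0.19, limma). Dex alone was called, 1.45-fold higher (0.54 ± 0.16, adjusted p = 0.046), and 12 alternative settings ended that call, among them normexp background (0.22, adjusted p = 0.38) and leaving out Dex replicate 2 (0.34, adjusted p = 0.19).

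**Figure D2:**
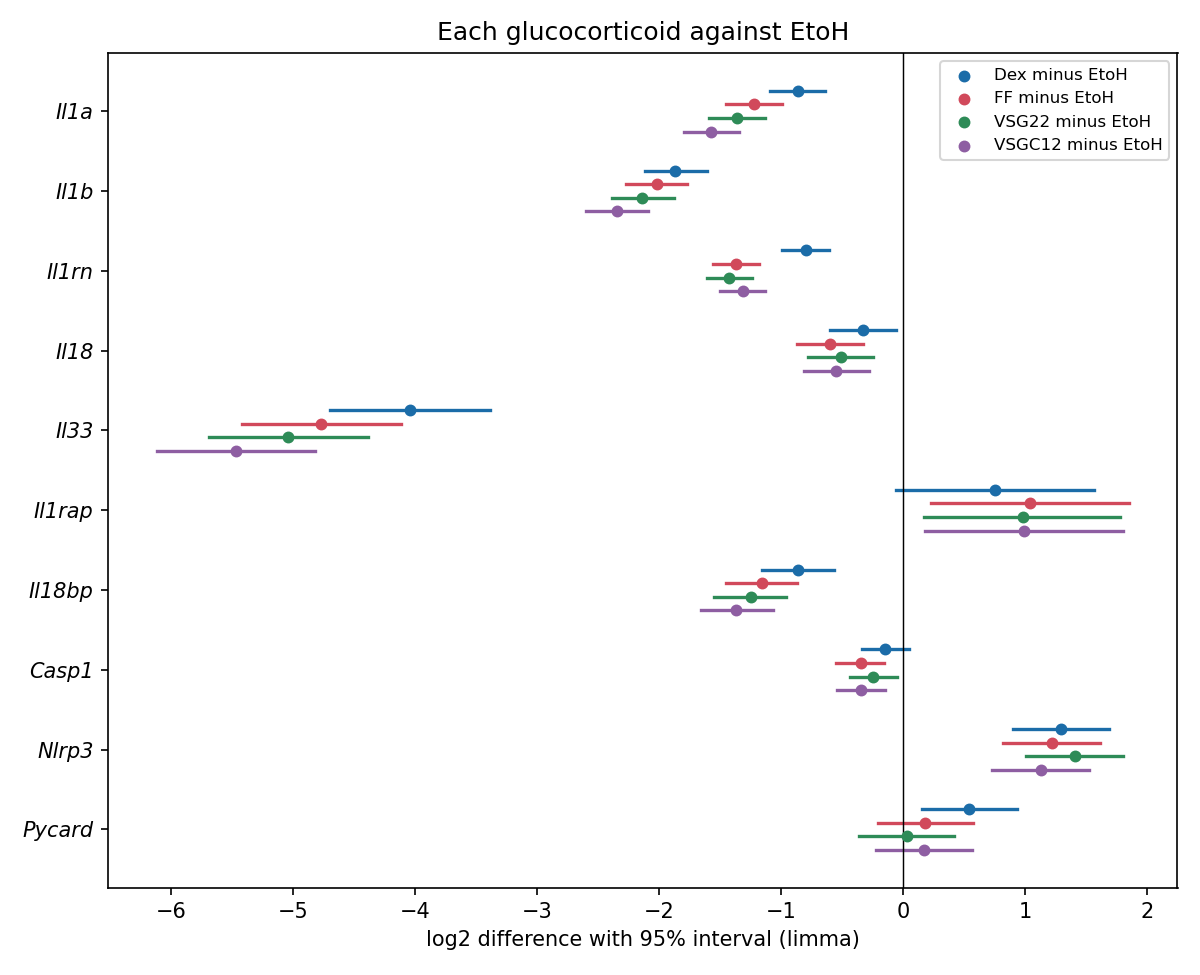
Log2 difference from EtoH (horizontal axis) of each of the 10 genes for Dex, FF, VSG22 and VSGC12, with 95% intervals from limma (bars); each group holds 2 arrays and the 4 comparisons share the EtoH arrays. Il33 lies farthest left, between -4.04 in Dex and -5.47 in VSGC12, and Nlrp3 lies to the right of 0 in every glucocorticoid.

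Taken 1 glucocorticoid at a time, 7 of the 10 genes were called for Dex (2 higher, 5 lower; 32.2% of all genes), 8 for FF (1 higher, 7 lower; 37.1%), 7 for VSG22 (1 higher, 6 lower; 30.6%) and 8 for VSGC12 (1 higher, 7 lower; 35.5%). Il1a, Il1b, Il1rn, Il33, Il18bp and Nlrp3 passed in all 4; with the array median subtracted, the Dex calls of Il1a (adjusted p = 0.065), Il1rn (0.093) and Il18bp (0.065) were lost. Il18 passed in FF, VSG22 and VSGC12 and had an adjusted p of 0.063 in Dex (-0.33), where the fit with the replicate block gave 0.045. Its calls were ended by 2 alternative settings in FF (adjusted p 0.051 and 0.21), by 6 in VSG22 (0.069 to 0.38) and by 2 in VSGC12 (0.063 and 0.35). Casp1 passed in FF (-0.35) and VSGC12 (-0.35), and 6 alternative settings ended each of these calls (adjusted p 0.059 to 0.56 in FF and 0.064 to 0.69 in VSGC12), among them leaving out either EtoH array. These comparisons share the EtoH arrays, so passing in one and not in another does not show a difference between glucocorticoids.

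Whether the glucocorticoids differ from each other at the matched dose and time was tested in 6 pairs, each over all genes, and by a moderated F-test over the 4. The F-test called 0 of the 10 genes and 0.255% of all genes (limma, lowest adjusted p among the 10 0.089, for Il1rn). Within pairs, 2 differences among the 10 genes passed. Il1rn was 1.54-fold lower in VSG22 than in Dex (-0.62, 95% interval -0.81 to -0.43, adjusted p = 0.034; adjusted over the 6 pairs alone, 0.00062), in a pair that called 0.549% of all genes. Il1a was 1.64-fold lower in VSGC12 than in Dex (-0.71, interval -0.94 to -0.49, adjusted p = 0.043; over the 6 pairs alone, 0.00099), in a pair that called 0.394%. Both calls hang on the setting. The Il1rn one was lost with normexp background (0.052), with the array median subtracted (0.48), with no filter on dim probes (0.24), with only the 2 groups fitted (0.32), and without any 1 array other than Dex replicate 1 (0.051 to 0.22). The Il1a one was lost with the replicate block (0.061), with the array median subtracted (0.57), with no filter (0.3), with only the 2 groups fitted (0.52) and without any 1 array other than Dex replicate 1 (0.071 to 0.22). On Dex replicate 2 the Il1a spot lies in a patch of local signal, a place where 3 or more of its 24 surrounding spots exceeded background in that group only; without spots in patches the difference was -0.63 (adjusted p = 0.16).

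FF against Dex called 0 of the 10 (0.366% of all genes; 5 of the 10 and 2602 genes at an unadjusted p under 0.05 in limma), Il1rn coming nearest (-0.57, adjusted p = 0.053). VSG22 against FF called 0 of the 10 and 0% of all genes (0 of the 10 and 1708 genes at an unadjusted p under 0.05). VSGC12 against FF called 0 of the 10 and 0.00555% of all genes (3 of the 10 and 759 genes at an unadjusted p under 0.05). VSGC12 against VSG22, the 2 coded compounds, called 0 of the 10 and 0% of all genes (0 of the 10 and 1291 genes at an unadjusted p under 0.05). For that last pair the 95% interval of the log2 difference was -1.09 to 0.22 for Il33, -0.46 to 0.04 for Il1b, -0.44 to 0.01 for Il1a and -0.67 to 0.11 for Nlrp3, so that differences within these limits remain possible.

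Dex had the highest mean of the 4 glucocorticoids in each of the 7 genes that fell, which held for 42.6% of the 4059 genes lower with the mean of the 4 that have a value on every array. In 6 of the 7, all but Casp1, both Dex arrays lay above the other 6 glucocorticoid arrays, which held for 19.7% of those genes. The order Dex, FF, VSG22, VSGC12 from high to low was seen in Il1a, Il1b, Il33 and Il18bp; in these genes no difference between neighbours in that order passed the test, and neighbouring arrays overlapped in Il1b and Il18bp (FF and VSG22) and in Il33 (VSG22 and VSGC12). Fkbp5 was also nearest to EtoH in Dex, with 4.71 and 4.91 in Dex and 5.19 to 5.53 in the other 3 glucocorticoids. By group means, so were Il1rap and the receptor gene Il18rap. The receptor gene Il1rl1 and Pycard went the other way. Il1rl1 had a mean of 3.15 in Dex and 2.66 to 2.88 in the other 3, against 1.14 in EtoH. Pycard differed from EtoH by 0.54 in Dex and by 0.03 to 0.18 in the other 3. Nlrp3 rose more in Dex (1.29) than in FF (1.22) and VSGC12 (1.13), and less than in VSG22 (1.41). On the Dex arrays 3.91% and 5.44% of spots lay in patches, against 0.416% to 1.88% on the other arrays, and the part of this in the order was not tested beyond the values without such spots.

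**Figure D3:**
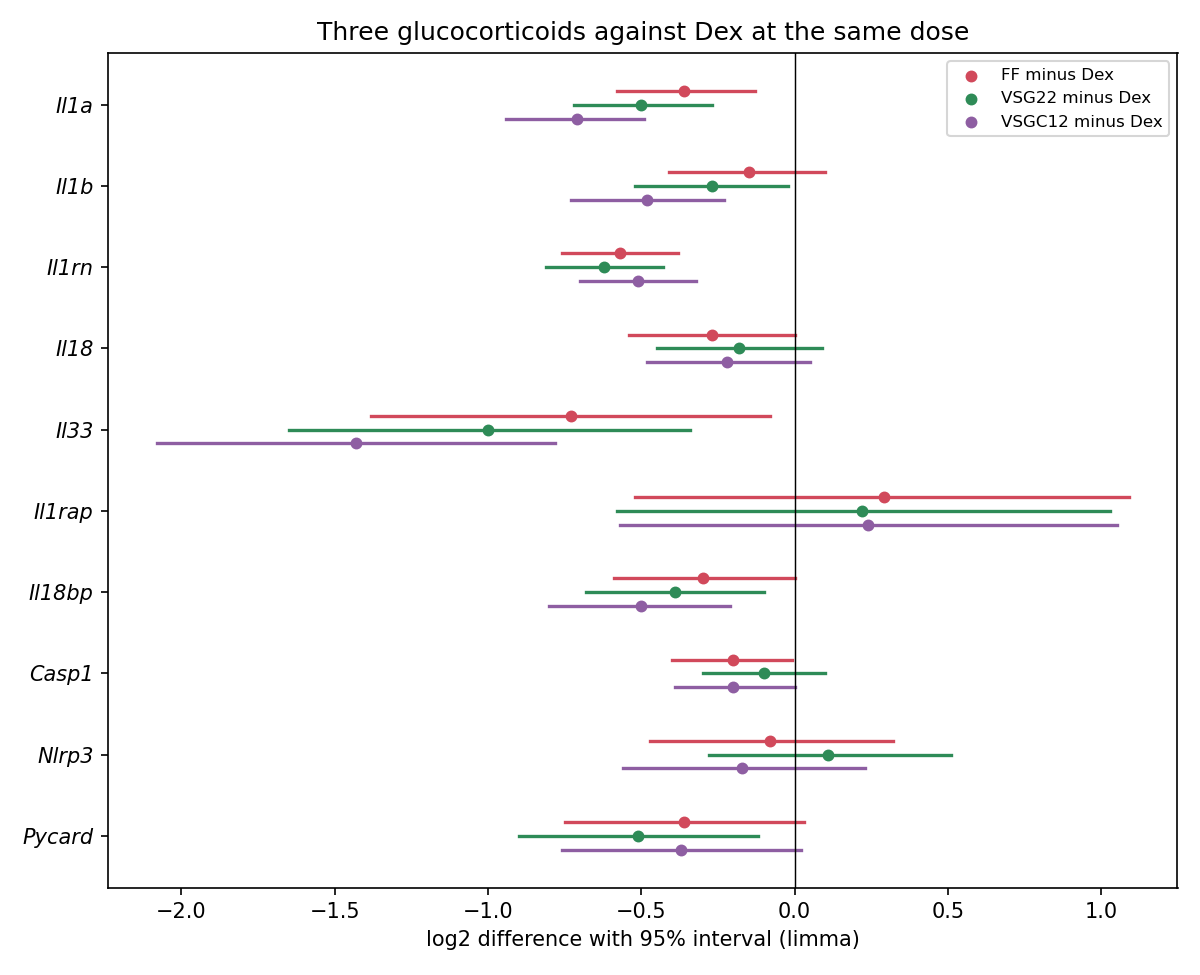
Log2 difference from Dex (horizontal axis) of each of the 10 genes for FF, VSG22 and VSGC12, with 95% intervals from limma (bars); each group holds 2 arrays and the 3 comparisons share the Dex arrays, and the intervals are not adjusted for the number of tests. For Il1rn the 3 intervals all lie left of 0, and for Il1a the difference from Dex is -0.36 in FF, -0.50 in VSG22 and -0.71 in VSGC12.

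Other genes of the pathway were read from a list of 58, of which 54 are on the array and 44 were measured. With the mean of the 4 against EtoH, 11 rose, 14 fell and 19 were not called, with a median log2 difference of -0.12. The share called was 56.8%, against 44.2% of all genes, and the count of 25 dropped to 12 with the array median subtracted. Of the 40 genes well above background on all 10 arrays, 8 rose and 14 fell. Of 8 receptor genes 3 were measured and 2 rose. Il18rap, the accessory chain of the IL-18 receptor (probe on mm9 at chr1:40605729-40605788), had log2 signals of -1.37 and -1.17 in Dex, -0.82 and -0.93 in FF, -1.06 and -0.92 in VSG22 and -1.19 and -1.13 in VSGC12, against -2.74 and -3.01 in EtoH. It was 3.48-fold higher (1.80 ± 0.10, adjusted p = 3.2e-05). Il1rl1, which encodes the IL-33 receptor ST2 (probe on mm9 at chr1:40522187-40522246), had log2 signals of 2.85 and 3.44 in Dex, 2.83 and 2.92 in FF, 2.88 and 2.79 in VSG22 and 2.77 and 2.54 in VSGC12, against 1.19 and 1.09 in EtoH. It was 3.33-fold higher (1.74 ± 0.15, adjusted p = 0.00022), in the direction opposite to its ligand gene Il33. With these probes of both receptor genes, all 8 glucocorticoid arrays were above both EtoH arrays. Another Il1rl1 probe was at background on every array. A further Il1rl1 probe was well above background on every glucocorticoid array except Dex replicate 2 and on neither EtoH array. Sigirr, the inhibitory receptor of the family, differed by 0.00 (adjusted p = 0.997). It was well above background on only 4 glucocorticoid arrays and 1 EtoH array, so this value does not show an unchanged gene. Of the 5 other ligand and antagonist genes, 1 is on the array and 0 were measured.

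Of 15 signalling genes downstream of the receptors, 4 rose and 7 fell. Irak3, which encodes a kinase-family member that restrains this signalling, rose 1.98-fold (0.99, adjusted p = 0.000143), and Irak1 rose by 0.54. Tollip, an adaptor that binds IRAK1, fell by 0.87 and the ubiquitin ligase gene Traf6 fell by 0.54. Of 10 measured sensor genes 5 rose and 3 fell. Nlrp1a rose by 1.06 (adjusted p = 0.000116). Nlrp12 and Naip1, counted among the 5, were well above background on 3 and 4 of the 8 glucocorticoid arrays and on 0 EtoH arrays. Mefv, also counted among the 5, was well above background on 8 glucocorticoid arrays and on 1 EtoH array only. Nlrp12, Naip1 and Mefv thus entered the test only through groups where they were high, and their calls support nothing. Of the 7 sensor genes well above background on all 10 arrays, 2 rose and 3 fell. Nlrc4, the partner of the NAIP receptors of bacterial flagellin and secretion systems, fell by 0.75, and Naip5 fell by 0.38 with an adjusted p of 0.0499. Of 10 measured regulators 0 rose and 3 fell, among them Pstpip1 (-0.80), which encodes a pyrin-binding protein, and the channel gene Panx1 (-0.67). Of 6 genes of pyroptosis and release 0 rose and 1 fell. That was Gsdme, a pore-forming gasdermin (probe on mm9 at chr6:50157436-50157495), with log2 signals of 0.51 to 1.07 on the 8 glucocorticoid arrays against 2.61 and 2.38 in EtoH, a difference of -1.80 (adjusted p = 4.3e-05), while Gsdmd, the pore-former cut by caspase-1, differed by -0.14 (adjusted p = 0.107).

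**Figure D4:**
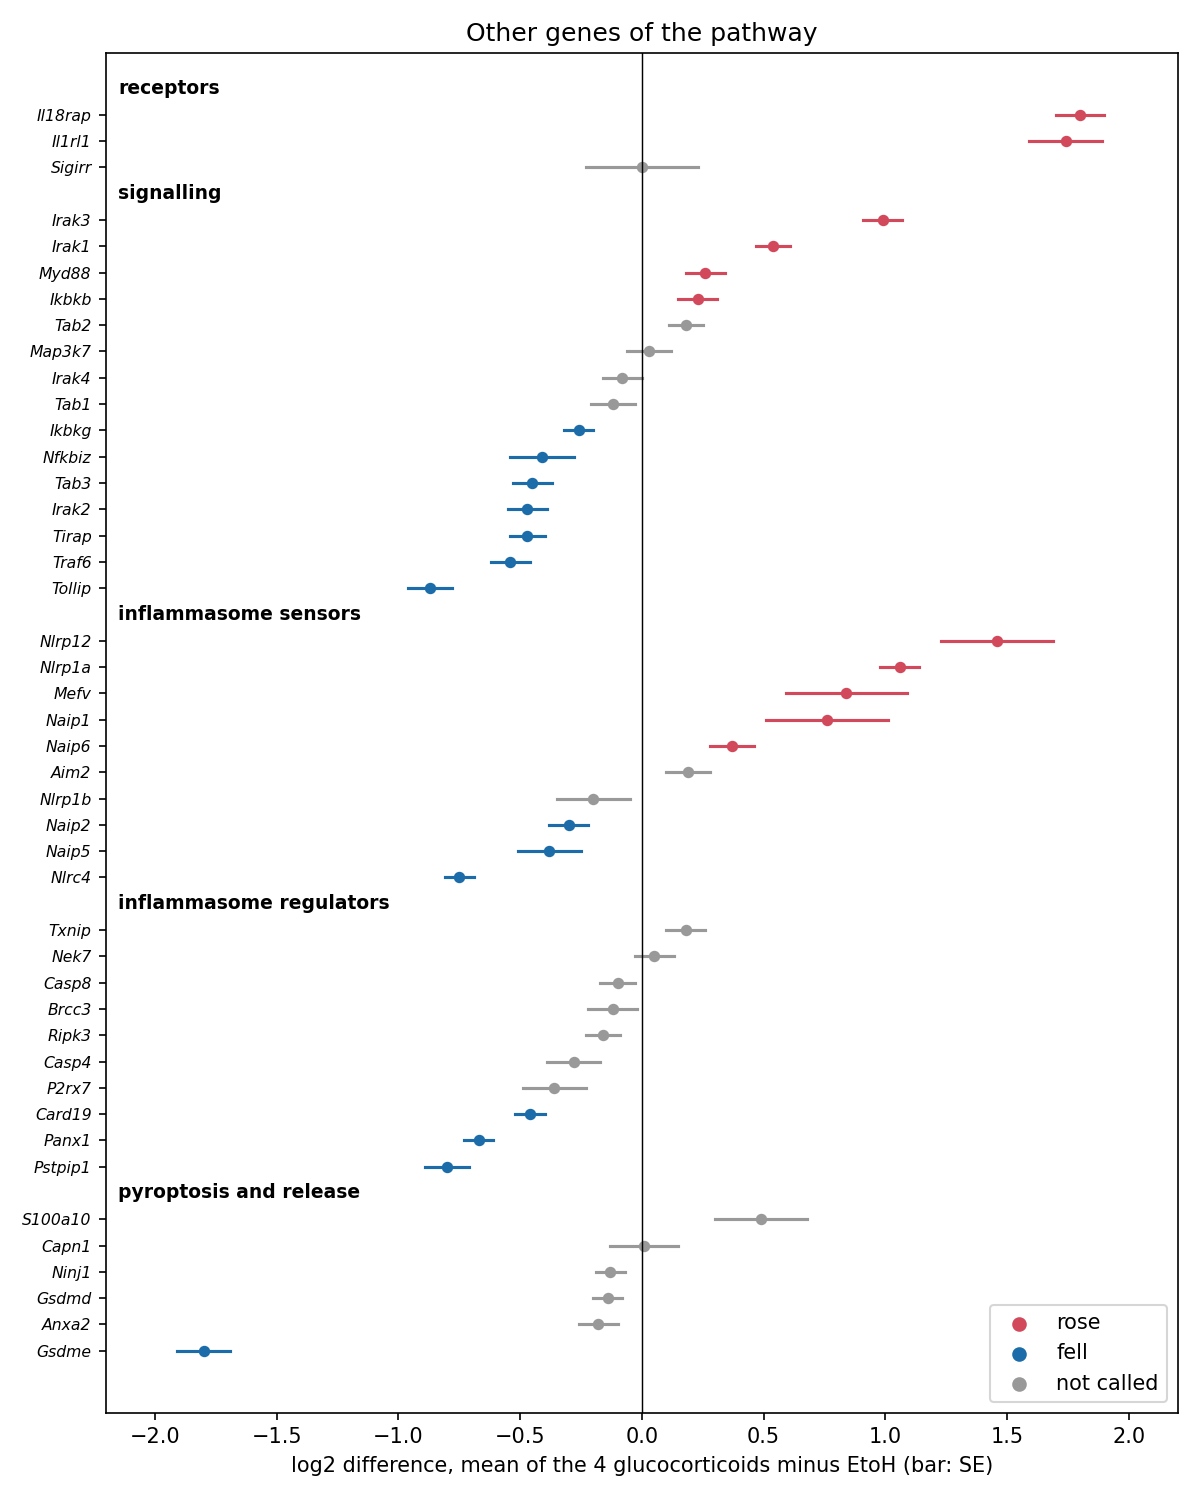
Log2 difference between the mean of the 4 glucocorticoids and EtoH (horizontal axis) of the 44 measured genes of the wider list, grouped by role; points are estimates from limma over 8 and 2 arrays, bars are standard errors and colours give the call. Il18rap and Il1rl1 lie farthest right and Gsdme farthest left. Nlrp12 and Naip1 were not well above background in EtoH, and Mefv was well above it on 1 EtoH array only.

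Patterns over the 10 arrays were set against those of 12257 genes that have a current symbol and are well above background on every array, as a description by Pearson's r of log2 signal. With 2 EtoH arrays apart from 8 others, a high r follows mainly from that gap. Il33 and Il1b were each among the 3 nearest to the other (r = 0.994). Nearest to Il33 was Procr (0.995), followed by Spink5, and after Il33 the nearest to Il1b were Mtss1 and Ptafr. Nearest to Il1a were Scimp (0.989), Camk2d and Dvl2, to Il1rn Trim25 (0.991), Natd1 and Cd40, and to Il18bp Chkb (0.990), Gbp2 and Mcoln2. Nearest to Il18 were Zranb1 (0.981), Rasa4 and Rasgrp4, and to Casp1 Rragc (0.988), Esyt1 and Cdt1. Nlrp3 was nearest to Nomo1 (0.995), Med14 and Nup160, Il1rap to Fpgs (0.980), Mzt2 and U2af1, and Pycard to Epb41 (0.958), Ren2 and Maz.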

How the data were processed

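Per the file headers, the authors deposited, for each of 10 arrays, Agilent Feature Extraction 10.7.3.1 output in the unit intensity: mean spot signal, local background and a processed signal, which the software corrects for background and for trends across the slide but does not scale between arrays. The deposited flag columns (other values, 0 or 1) mark spots above background, saturated or outlying. The submitters' processing notes name limma without a step. Marked spots were dropped, a probe's spots averaged on the log2 scale, and the array's 75th percentile subtracted. Each gene is represented by its probe with the highest mean among probes that exceeded background on all arrays of 1 or more groups. Of the probes, 26413 were named by accession, 3859 by symbol and 735 by synonym through the mouse RefSeq gene table, and 24674 kept the name in the file.

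One limma model (version 3.58.1, R 4.3.3; lmFit and eBayes; 5 residual and 1.81 prior degrees of freedom) held all 5 groups, with two-sided p-values adjusted by Benjamini and Hochberg over all genes within a comparison and a threshold of 0.05. The number of arrays limits the precision. The fitting code was tested on simulated data. Replicate numbers follow the 2 slides, and a slide carries every group. Between groups, deviations on the same slide correlated with r from -0.03 to 0.33, not all over 0.1, so the main fit has no block. Alternatives were other background, scaling, filter, probe, patch and group settings, the replicate block and leaving out each array. The genes named are the 10 members, per role up to 2 of the wider list in each direction with the largest change, 3 pattern neighbours per member and 2 treatment checks. Sigirr, Gsdmd, Naip1, Mefv and the cell type markers given with values fall outside this rule and were chosen after their values were seen. Members, lists and tests were chosen with earlier results of these data known. Probe positions are on mm9 as in the files; their exons were not looked up, since no annotation of that build was used here. Promoter sequences are RefSeq's, on GRCm38.p6.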

Additional observations from a re-analysis of the deposited data

How the results depend on the processing

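With the mean of the 4 glucocorticoids against EtoH, Il1a, Il1b, Il1rn, Il33, Il18bp and Nlrp3 kept direction and call under every alternative run. Differences of the 10 genes from EtoH, and the 2 pair differences called in the main fit, were followed under the alternatives. Of these values, 979 stayed on the same side of the threshold with the same sign, 73 lost a call, 15 gained one and 3 reversed. Pair differences not called in the main fit are not in this tally. The reversals were Pycard in VSG22 against EtoH (0.03, not called): -0.03 with the percentile taken over probes detected on all arrays, -0.03 without VSG22 replicate 1 and -0.02 without EtoH replicate 1, within a range of -0.03 to 0.08 over the left-out arrays. Subtracting the array median gave 3 of the 10 genes called for Dex against EtoH in place of 7, 12 of the wider list in place of 25, and 3760 genes in all in place of 7961. With no filter on dim probes, where more genes enter the adjustment, 16 of the wider list and 4925 genes were called. The count of pair differences among the 10 genes (2) became 1 with normexp background, 1 with the replicate block, 1 without spots in patches, and 0 with the array median, with no filter and with only the groups compared. Leaving out 1 array gave 0 to 3 pair differences, 0 to 1 genes in the F-test, 17 to 26 genes of the wider list and 4670 to 8937 genes in all, with 4751 without EtoH replicate 1 and 4670 without EtoH replicate 2. The cause was not tested. The replicate block removed the call of Il1a in VSGC12 against Dex and added that of Il18 in Dex against EtoH, and changed no other call among the 10 genes. With 2 arrays a group, each left-out array leaves a group of 1, whose spread is then taken from the other groups. Signals of Il1rap, Il18bp and both Nlrp3 probes lie below the array percentile on every array. So do those of Il33 on the glucocorticoid arrays other than Dex replicate 1, and those of Pycard on every array other than Dex replicate 2.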
